A study of Mus musculus with 6 samples.

Results

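The genes described here are 9 genes used as markers of glia: Olig1, Olig2, Sox10, Pdgfra and Cspg4 of the oligodendrocyte lineage, and Aldh1l1, Gfap, Aqp4 and S100b of astrocytes. They were chosen by gene symbol, and all 9 were among the 19938 genes measured, each with 1 probe set. Signals came from 6 arrays (GeneChip Mouse Gene 1.0 ST) of total RNA, from cells that carry GFP (CTIP2:GFP+) and cells that do not (CTIP2:GFP-), sorted from 1 differentiating culture system on day 11, day 12 and day 13, with 1 array per fraction and day. All cells came from CTIP2:GFP knock-in embryonic stem cells of a 129SVEV line, in which an IRES-GFP cassette follows the Bcl11b (Ctip2) coding sequence and the Neo cassette was kept. They were grown as floating aggregates by the SFEBq method, with a TGF-beta receptor inhibitor (SB-431542) and a WNT inhibitor (WNT-C59) in the first days, so both fractions share the reporter and the treatment. The labels call both fractions ESC-derived cortical progenitors. The fractions differ only in the sort, and each consists of 3 arrays of consecutive days rather than repeated cultures of 1 day.

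In the developing forebrain, neural progenitors first make neurons and later turn to glia. Olig1 and Olig2 are basic helix-loop-helix transcription factors of ventral progenitors and of the oligodendrocyte lineage. Sox10 acts with them in that lineage and is also a regulator of neural crest and Schwann cells. Pdgfra, the alpha receptor for platelet-derived growth factor, and Cspg4, the NG2 proteoglycan, mark oligodendrocyte precursors, but Pdgfra is also found in mesenchyme and early endoderm and Cspg4 in pericytes. Aldh1l1, an enzyme of folate metabolism, is present in astrocytes and their radial glial precursors, whereas Gfap, an intermediate filament protein, and Aqp4, a water channel, mark more mature astrocytes. S100b is a calcium-binding protein of astrocytes and also of other glia.

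The sort was checked on Bcl11b itself, which was 3.65-fold higher in GFP+ cells (1.87 on the log2 scale, with an adjusted p of 0.025 from limma). This call was lost without day 13 (adjusted p = 0.056), with median centring (0.0999), with a further quantile normalization (0.071) and with the methods' t-test after adjustment (0.296), where the difference was 1.59 to 1.98. Without day 13, with median centring and in the last of these settings, 0 of all genes passed, so the lost call there is not particular to Bcl11b. With the further quantile normalization 52 of all genes were higher. The array of day 13 GFP- cells differed in spread. Its standard deviation over probe sets was 1.11 against 1.29 to 1.48 on the others, and its dim probe sets read higher. As a reference for dim signal, the 1027 olfactory receptor (Olfr) genes, which neural progenitors are not expected to use, had a median log2 signal of 4.68 on that array and of 4.38 to 4.56 on the other 5. Their 95th percentile was 4.89 to 5.38 over the 6 arrays and is called the dim reference below. It is a rough bound, because background depends on the sequence of each probe, and signals of different probe sets are not set against each other. On day 13 the Olfr genes had a median difference of -0.18 between GFP+ and GFP- cells, and the central range of their differences (5th to 95th percentile) was -0.64 to 0.11. On day 12 that range was -0.07 to 0.17.

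Between the fractions, Pdgfra had the largest positive difference of the 9 genes, a 2.40-fold higher mean in GFP+ cells, and Aldh1l1 the largest negative one, a 3.84-fold lower mean. Neither passed the test over all genes, and the differences of the other 7 genes ranged from -0.41 to 0.27 on the log2 scale. The test was limma's moderated one with the day as a block, and p-values were adjusted over all 19938 genes by the Benjamini-Hochberg method. At an adjusted p under 0.05, 0 of the 9 genes were higher in GFP+ cells, against 0.797% of all genes, and 0 were lower, against 0.567%. At an unadjusted p under 0.05 there were 3 of 9 (Pdgfra, Aldh1l1 and Aqp4), against 15.5% of all genes. The median difference of the 9 genes was -0.01 and that of all genes -0.05. On average 1 of the 9 genes was over 2-fold higher (1.97% of all genes) and 1 over 2-fold lower (1.02% of all genes).

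**Figure D1:**
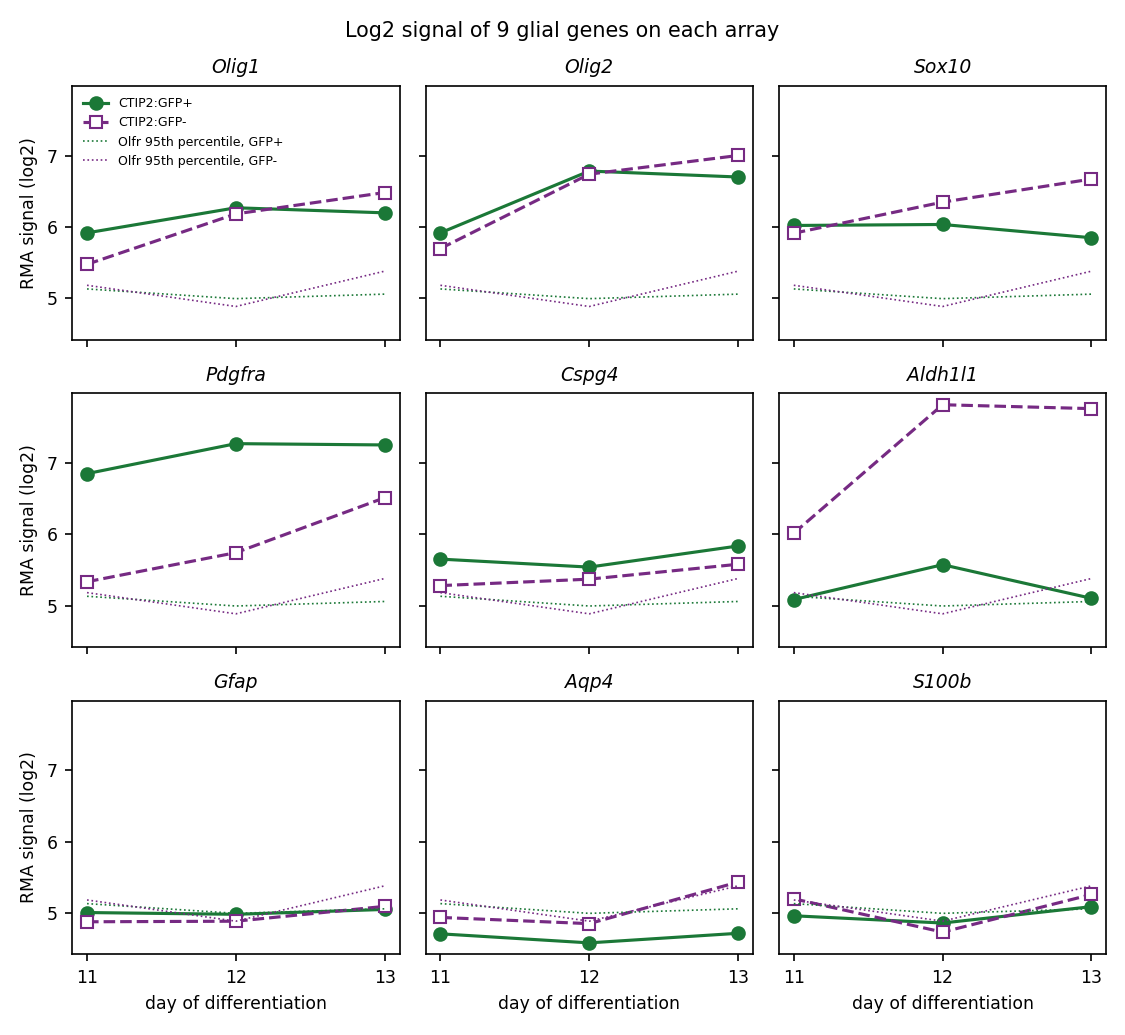
RMA signal (y axis, log2) of the 9 genes against day of differentiation (x axis). Filled circles are CTIP2:GFP+ and open squares CTIP2:GFP- arrays, 1 array each, and dotted lines give the 95th percentile of the olfactory receptor genes on the same arrays. Pdgfra lies higher and Aldh1l1 lower in GFP+ cells on all 3 days, while Gfap lies just below the dotted line of its fraction on all 6 arrays.

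Among the transcription factors, Olig2 had nearly the same signal in both fractions. Its log2 signal was 5.92, 6.78 and 6.70 in GFP+ cells and 5.70, 6.74 and 7.00 in GFP- cells on day 11, day 12 and day 13. The groups overlapped fully, and in both of them the lowest array was that of day 11. The difference between the fractions was -0.01 (95% interval -0.41 to 0.38, adjusted p = 0.98), and its sign turned with the scaling, to 0.04 after median centring of each array. Olig1, which lies next to Olig2 on chromosome 16 with 0 protein-coding genes between them in the RefSeq annotation of GRCm38.p6, was at 5.92, 6.27 and 6.20 in GFP+ and at 5.48, 6.18 and 6.48 in GFP- cells. These groups also overlapped, and the GFP- arrays spanned the GFP+ arrays. The difference was 0.08 (95% interval -0.37 to 0.53, adjusted p = 0.85), and its sign turned to -0.0013 after a further quantile normalization.

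Sox10 was at 6.02, 6.03 and 5.85 in GFP+ cells and at 5.91, 6.35 and 6.67 in GFP- cells on day 11, day 12 and day 13. The fractions were close on day 11, and the GFP- signal was the higher one on day 12 and on day 13. The difference was -0.34 (95% interval -0.85 to 0.17, adjusted p = 0.52). By day it was 0.11, -0.31 and -0.82, so that the largest gap fell on the day whose GFP- array stood apart. Without day 13 the difference was -0.10.

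Of the surface molecules of oligodendrocyte precursors, Pdgfra was at 6.85, 7.27 and 7.25 in GFP+ cells and at 5.34, 5.74 and 6.51 in GFP- cells. Every GFP+ array lay above every GFP- array, as it did for 9.05% of all genes, and of the 9 members this held only for Pdgfra. The signal was above the dim reference on all 6 arrays. GFP+ cells had a mean of 7.12 ± 0.24 (SD, n = 3), whereas that of GFP- cells was 5.86 ± 0.60 (SD, n = 3), a log2 difference of 1.26 (95% interval 0.76 to 1.76, standard error 0.20, adjusted p = 0.057 from limma). It ranked 199 of 19938 genes by its difference. By day the difference was 1.51, 1.53 and 0.74, and the smaller value of day 13 came with a GFP- signal that was 0.77 higher than on day 12, while the GFP+ signal differed by -0.02. Without day 13 the difference was 1.52 (adjusted p = 0.053), in a setting where 0 of all genes passed. It passed the test without day 11 (adjusted p = 0.040) and without day 12 (adjusted p = 0.024), and also when both the day 13 GFP- array and the block for the day were left out (1.58, adjusted p = 0.029). Over all genes 381 were higher without day 11, 930 without day 12 and 202 in the last setting, against 159 in the main fit. In the fits on 2 days the standard error varied little between genes. It was 0.303 to 0.325 without day 11 and 0.221 to 0.270 without day 12 (5th to 95th percentile). Their p thus rests on a spread pooled over genes. On all 6 arrays Pdgfra did not pass with no block for the day (adjusted p = 0.138), with median centring (adjusted p = 0.120) or with a further quantile normalization (adjusted p = 0.168). Over all genes 84 were higher with no block and 52 with quantile normalization. With median centring 0 of all genes passed, as without day 13, so failing there is not particular to Pdgfra.

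Cspg4 was at 5.65, 5.54 and 5.84 in GFP+ and at 5.28, 5.37 and 5.58 in GFP- cells. Its differences by day were all positive (0.37, 0.17 and 0.26), but the groups overlapped, since the GFP- array of day 13 lay above the GFP+ array of day 12. The difference of 0.27 did not pass the test (95% interval -0.07 to 0.60, adjusted p = 0.44).

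Among the astrocyte genes, Aldh1l1 was at 5.09, 5.57 and 5.10 in GFP+ cells and at 6.02, 7.81 and 7.76 in GFP- cells on day 11, day 12 and day 13. Every GFP+ array lay below every GFP- array, as for 7.85% of all genes. The GFP+ signal of day 11 was under the dim reference of its array (5.13), and that of day 13 was just over it (5.06). GFP+ cells had a mean of 5.25 ± 0.28 (SD, n = 3), whereas that of GFP- cells was 7.20 ± 1.02 (SD, n = 3), a log2 difference of -1.94 (95% interval -2.76 to -1.12, standard error 0.33, adjusted p = 0.062 from limma). It ranked 11 of 19938 genes counted from the most negative difference. By day the difference was -0.93, -2.24 and -2.66, and among the GFP- arrays that of day 11 was the low one. Without day 11 the difference was -2.45 and passed the test (adjusted p = 1.57e-05), and without day 12 it was -1.79 (adjusted p = 0.011). Over all genes 171 were lower without day 11 and 229 without day 12, against 113 in the main fit. These fits on 2 days have 1 residual degree of freedom, and without day 11 the standard error was nearly the same for all genes (0.303 to 0.325 from the 5th to the 95th percentile), so that the p rests on a spread pooled over genes. Without day 13 it was -1.59 (adjusted p = 0.139), and with no block for the day the adjusted p was 0.145. In the setting without day 13, 0 of all genes passed, so failing there is not particular to Aldh1l1. With no block 41 of all genes were lower.

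The other 3 astrocyte genes lay at or near the dim reference. Gfap was at 5.01, 4.98 and 5.05 in GFP+ and at 4.88, 4.89 and 5.09 in GFP- cells, below the dim reference on all 6 arrays. No difference was detectable at this signal (0.06, 95% interval -0.27 to 0.40, adjusted p = 0.85). S100b was at 4.96, 4.86 and 5.09 in GFP+ and at 5.20, 4.73 and 5.26 in GFP- cells, above the dim reference on 2 of 6 arrays, with a difference of -0.09 (95% interval -0.46 to 0.27, adjusted p = 0.79). Its groups overlapped, and its sign differed between the days.

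Aqp4 was at 4.71, 4.58 and 4.72 in GFP+ and at 4.94, 4.85 and 5.43 in GFP- cells. Every GFP+ array lay below every GFP- array, as for 7.85% of all genes, but 5 of the 6 arrays were below the dim reference. The 1 above it was the day 13 GFP- array. The difference was -0.41 (95% interval -0.80 to -0.01, adjusted p = 0.31). By day it was -0.23, -0.27 and -0.72, against Olfr medians of -0.07, 0.02 and -0.18. Without day 13 it was -0.25 (adjusted p = 0.45), in a setting where 0 of all genes passed.

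**Figure D2:**
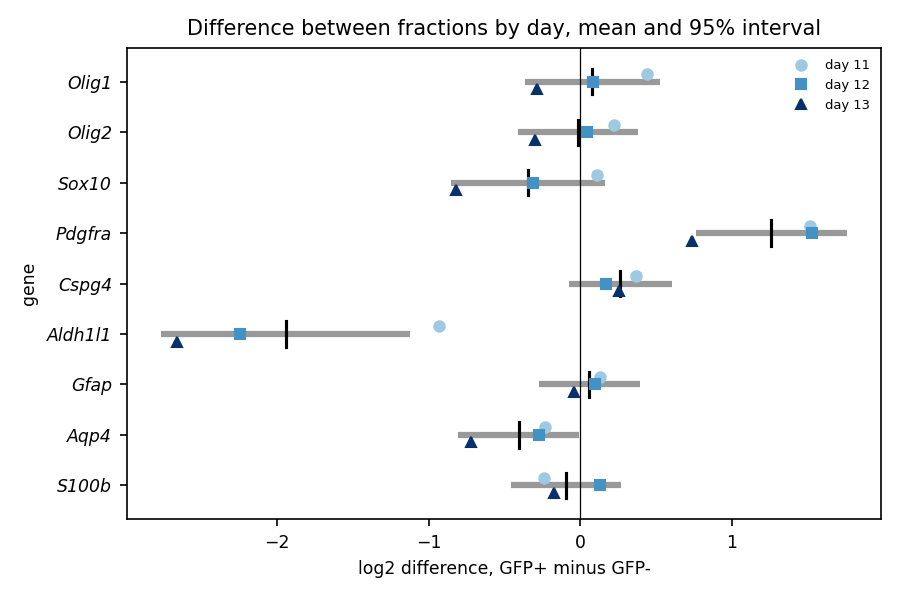
Log2 difference of CTIP2:GFP+ minus CTIP2:GFP- signal (x axis) for the 9 genes (y axis). Points are the differences on day 11, day 12 and day 13, black bars their mean, and grey bars the 95% interval from limma. The intervals of Pdgfra (0.76 to 1.76) and Aldh1l1 (-2.76 to -1.12) lie away from 0, and the interval of Aqp4 ends at -0.01.

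Next, the 9 genes were compared over the days. Of the 9, 8 had a larger signal on day 13 than on day 11 in both fractions, against 25.2% of all genes, but in GFP+ cells the gain was as small as 0.007 for Aqp4, 0.02 for Aldh1l1 and 0.04 for Gfap. The median of the Olfr genes was also larger on day 13, at 4.47 against 4.46 in GFP+ and 4.68 against 4.56 in GFP- cells. Sox10 was the exception, with -0.17 in GFP+ and 0.76 in GFP- cells. For Olig2 the difference between these days was 0.78 in GFP+ and 1.30 in GFP- cells. For Olig1 the values were 0.28 and 1.01, for Pdgfra 0.40 and 1.18, and for Aldh1l1 0.02 and 1.74. In all 4 of these genes the GFP+ signal was highest on day 12. Day 13 differed from it by only -0.08 in Olig2, -0.07 in Olig1 and -0.02 in Pdgfra, and by -0.47 in Aldh1l1. The GFP- signal was highest on day 13 in 3 of them and on day 12 in Aldh1l1. With the fractions averaged, the day 13 minus day 11 difference was 1.04 for Olig2 (standard error 0.20), 0.79 for Pdgfra and 0.64 for Olig1, which had an unadjusted p of 0.0020, 0.020 and 0.028, against 2.24% of all genes under 0.05. After adjustment over all genes 0 of the 9 genes passed (adjusted p = 0.91 for these 3), as did 0% of all genes. This contrast was taken from the same limma fit after the values had been seen, and it includes the day 13 GFP- array. Its p-values use both sorts of 1 day as if they were replicates of that day, so they measure the scatter between fractions and not the spread between cultures.

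The fitted change per day of the difference between the fractions was negative in 8 of the 9 genes and 0.03 for S100b. That of Cspg4 (-0.06) turned to 0.0017 with median centring. The share of all genes with a negative change was not counted, so whether 8 of 9 is unusual is not known. By day, the median difference of all genes was -0.010, -0.005 and -0.071, and thus lowest for day 13. The fitted change was -0.86 per day for Aldh1l1 (standard error 0.27, unadjusted p = 0.0013, adjusted p = 0.40), -0.47 for Sox10, -0.39 for Pdgfra and -0.36 for Olig1. The standard error was 0.27 for every gene from the 5th to the 95th percentile, a spread pooled over genes. None of the 9 genes passed this test at an adjusted p under 0.05, and 0.0351% of all genes did. At an unadjusted p under 0.05 it was 1 of 9, Aldh1l1, against 5.11% of all genes. The Olfr genes also had their most negative median on day 13 (-0.18), and the part of that array in these values was not tested.

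Of the 20 measured other genes of the oligodendrocyte lineage, 0 were higher and 0 lower past limma's test. Over all genes it was 0.797% and 0.567%. At an unadjusted p under 0.05 there were 3 of the 20, against 15.5% of all genes. The median difference was -0.13 against -0.05 for all genes. Of the 20, 4 were below the dim reference on all 6 arrays, as were 5196 of all 19938 genes. The largest differences were those of Tnr, the matrix protein tenascin-R (0.94, adjusted p = 0.067), and Sox8, a transcription factor related to Sox10 (-0.92, adjusted p = 0.065). Tnr was at 5.78, 6.12 and 6.45 in GFP+ and at 5.10, 5.25 and 5.18 in GFP- cells, and Sox8 was at 6.56, 6.53 and 7.03 and at 7.24, 7.76 and 7.89. For both genes the groups did not overlap, in opposite directions. In this list every GFP+ array lay above every GFP- array for 2 genes (9.05% of all genes) and below for 2 (7.85%). Tnr was below the dim reference on 2 of the 3 GFP- arrays, so its difference is not well measured. The genes of myelin, Mbp, Mag, Mog and Mobp, did not pass, like the rest of the list. Mobp was above the dim reference on 0 arrays and Mag on 1, so their differences are not well measured. Mbp and Mog were above it on all 6, and for Mbp every GFP+ array lay below every GFP- array.

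Of the 21 measured other astrocyte genes, 7 were lower in GFP+ cells past the test, against 0.567% of all genes. Of the rest, 0 were higher, against 0.797% of all genes, and 14 did not pass. The median difference was -0.68, and 15 of the 21 had a negative difference on all 3 days, as did 21.4% of all genes. The 7 genes included Slc1a3, the glial glutamate transporter, which was at 5.88, 7.66 and 6.37 in GFP+ and at 8.44, 10.05 and 9.58 in GFP- cells (log2 difference -2.72, adjusted p = 0.024 from limma). Further genes among the 7 were Acsbg1, an acyl-CoA synthetase (-1.82), Fgfr3, a receptor for fibroblast growth factors (-1.64), and Tnc, the matrix protein tenascin-C (-1.51). Radial glia also express Slc1a3, Fgfr3 and Tnc. With the block, 14 of the 21 had an unadjusted p under 0.05, against 15.5% of all genes. When the day was not blocked, 0 of the 21 passed, and of all genes 84 were higher and 41 lower. Without day 13, 0 of all genes passed, so 0 of the 21 in that setting says nothing about this list. When both the day 13 GFP- array and the block were left out, 1 of the 21 was lower, against 114 of all genes.

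Of 13 genes of gliogenic transcription and cytokine signalling, 1 was lower (0.567% of all genes) and 0 higher (0.797%), with a median difference of -0.22. The 1 gene was Sox9, a transcription factor of radial glia and astrocytes, at 7.24, 7.82 and 7.91 in GFP+ and at 8.68, 9.27 and 9.10 in GFP- cells (log2 difference -1.36, adjusted p = 0.027). This call was lost with no block for the day, with or without the day 13 GFP- array. It was also lost with the block when day 13 was left out, where 0 of all genes passed. Of the PDGF ligands and the other PDGF receptor, 0 of 5 passed limma's test. At an unadjusted p under 0.05 it was 1 of 5, against 15.5% of all genes. Pdgfrb, the beta receptor, was at 5.59, 5.46 and 5.68 in GFP+ and at 5.92, 6.51 and 6.60 in GFP- cells (-0.77, adjusted p = 0.124), the opposite sign to that of Pdgfra, and Pdgfc, a ligand, differed by -0.31 (adjusted p = 0.70).

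**Figure D3:**
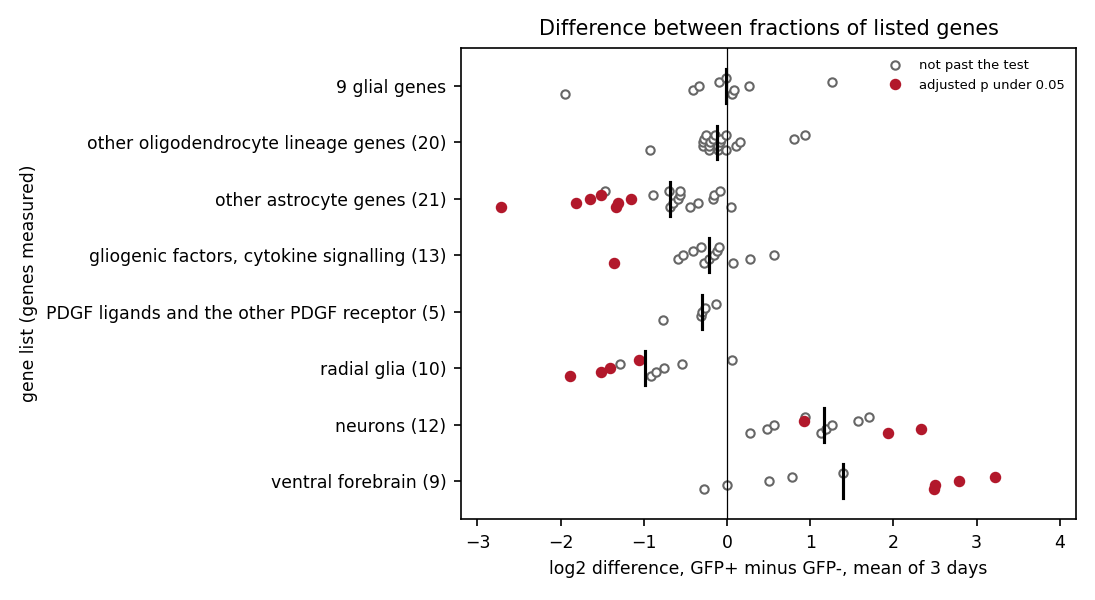
Log2 difference of CTIP2:GFP+ minus CTIP2:GFP- signal, mean of 3 days (x axis), for 8 gene lists (y axis, number measured in brackets). Each point is a gene, red where the adjusted p from limma was under 0.05, and black bars are the medians. The other astrocyte genes have a median of -0.68 with 7 red points, all below 0, and the other oligodendrocyte lineage genes a median of -0.13 with 0 red points.

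Markers of other cell types moved with the fractions beside these genes, and their part in the differences was not tested. As arrays measure a whole fraction, fewer cells of a type and less RNA per cell cannot be told apart. Of 10 radial glial genes 4 were lower in GFP+ cells (Notch1, Nes, Hes5 and Vim), against 0.567% of all genes. The mean log2 signal over the list was 7.05 to 7.22 in GFP+ and 8.00 to 8.28 in GFP- cells. Of the 10, 9 were above the dim reference on all 6 arrays, as were 10534 of all 19938 genes. Of 12 neuronal genes 3 were higher (Syt1, Myt1l and Map2), against 0.797% of all genes. Their list mean was 9.21 to 9.54 in GFP+ and 7.45 to 8.56 in GFP- cells, and all 12 were above the dim reference on every array. Of 9 ventral forebrain genes 4 were higher (Dlx1, Dlx5, Lhx6 and Dlx2), also against 0.797% of all genes. Their list mean was 6.65 to 7.93 in GFP+ and 5.46 to 6.56 in GFP- cells. The GFP+ mean of the ventral forebrain list was lowest on day 12. In GFP+ cells Olig2 and Olig1 were highest on that day, but their day 13 minus day 12 difference was only -0.08 and -0.07. Without day 13, 0 of all genes passed, so 0 in these 3 lists says nothing about them. With both the day 13 GFP- array and the block left out, 4 radial glial genes were lower, against 114 of all genes. In that setting 5 neuronal and 2 ventral forebrain genes were higher, against 202 of all genes.

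For cell types that share single markers with the 9 genes, 0 genes passed limma's test in any list. Over all genes 0.797% were higher and 0.567% lower, so 0 in lists this short does not set them apart. At an unadjusted p under 0.05 there were 2 in neural crest and Schwann cells, 1 in endothelium and 0 in the other 3. Over all genes that share was 15.5%. Of all 19938 genes, 10534 were above the dim reference on all 6 arrays and 5196 on none. Of 11 genes of pericytes and mesenchyme, 3 were above the dim reference on all 6 arrays and 6 on none, with a list mean of 4.95 to 5.13 in GFP+ and 4.98 to 5.53 in GFP- cells. The largest differences were -0.38 for Twist1 and -0.31 for Dcn. Of 9 genes of neural crest and Schwann cells, 3 were above it on all arrays and 2 on none, with a list mean of 5.21 to 5.39 and of 5.53 to 5.69. Pax3, which neural crest shares with dorsal neural progenitors, had the largest difference (-1.25, adjusted p = 0.065), followed by Tfap2b (-0.43). Of 7 extraembryonic endoderm genes 4 were above it on all arrays and 2 on none (list mean 5.12 to 5.40 and 5.04 to 5.72), and Gata6 (0.22) and Foxa2 (-0.22) differed most. Microglial genes, of which 1 of 8 was above it on all arrays and 3 on none, had a list mean of 4.98 to 5.12 and of 4.97 to 5.13, with Cd68 (0.15) and C1qa (0.13) differing most. Endothelial genes, of which 0 of 5 were above it on all arrays, had a list mean of 4.80 to 5.02 and of 4.95 to 5.42, with Pecam1 (-0.40) and Flt1 (-0.31) differing most.

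The labelled identity was checked on 7 measured cortical genes, of which 0 passed limma's test, against 0.797% higher and 0.567% lower over all genes. At an unadjusted p under 0.05 it was also 0, against 15.5% of all genes. Of the 7, 3 were above the dim reference on all 6 arrays, as were 10534 of all 19938 genes. The list mean was 5.63 to 6.39 in GFP+ and 5.71 to 6.39 in GFP- cells. Tbr1, a transcription factor of early cortical neurons, was at 4.96, 6.79 and 5.84 in GFP+ and at 4.91, 5.01 and 5.46 in GFP- cells. Its difference was 0.74 (adjusted p = 0.39), and Neurod6 differed by 0.53 (adjusted p = 0.42). Tbr1 was above the dim reference on 4 of 6 arrays and Neurod6 on 2. Neurod2 was also positive (0.29), while Emx2 (-0.46), Emx1 (-0.26), Eomes (-0.23) and Lhx2 (-0.07) were negative. The median difference of the list was -0.07. Of the GFP+ arrays, that of day 12 was the highest for Tbr1. It was also the highest for Olig2, but there day 13 differed from it by only -0.08.

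Finally, genes with the most similar profile were sought for the 4 members whose signal ranged over more than 1 on the log2 scale, as did that of 27.3% of all genes. Likeness was the root mean square difference between profiles over the 6 arrays, each centred on its own mean, and it is a description of these arrays. For Aldh1l1 the nearest genes were Tnc (0.29), Itgb5, an integrin subunit (0.30), and Gas1, a co-receptor for Hedgehog proteins (0.30). Their differences between the fractions on day 11, day 12 and day 13 were -1.01, -1.58 and -1.95 for Tnc and -0.64, -1.57 and -2.06 for Gas1. Each of these was most negative on day 13, as was that of Aldh1l1. For Pdgfra the nearest were Usp29, a ubiquitin-specific protease (0.18), Glra2, a glycine receptor subunit (0.20), and Cntnap4, a neuronal adhesion molecule (0.21). Of the other 8 members, the nearest to Pdgfra was Cspg4 (0.58), which ranked 619 among all genes.

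The gene nearest to Olig2 in all 19938 was its neighbour Olig1 (0.21), followed by Coq3, an enzyme of ubiquinone synthesis (0.21), and Sema6d, a semaphorin (0.22). For Olig1 the nearest were Hgh1 (0.11), Fam98a (0.12) and Coq3 (0.12), and Olig2 ranked 92. Sox10 ranked 444 by likeness to Olig2 and 835 by likeness to Olig1, ahead of the other members except, for each, the neighbouring Olig gene. For Olig1 this order does not set Sox10 (0.266) apart from Gfap (0.273, rank 1065) and Cspg4 (0.279, rank 1312). Gfap was below the dim reference on all 6 arrays.

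**Figure D4:**
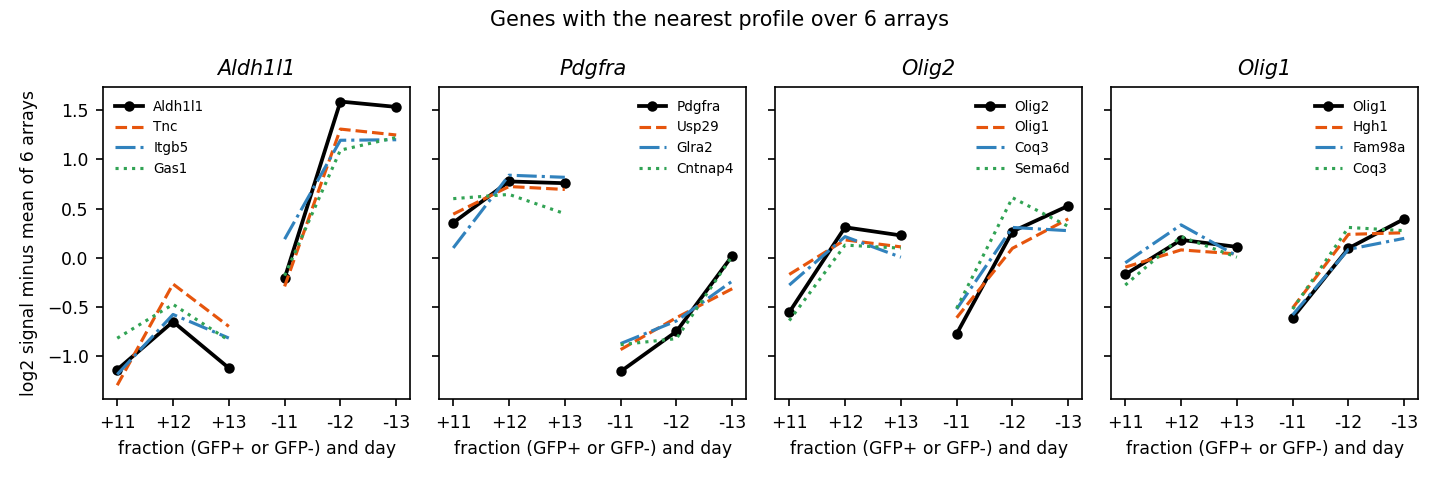
Log2 signal minus the mean of the 6 arrays (y axis) for Aldh1l1, Pdgfra, Olig2 and Olig1 (black, with points) and the 3 genes with the nearest profile (coloured lines), on the GFP+ arrays (+) and GFP- arrays (-) of day 11, day 12 and day 13 (x axis). The root mean square difference of the genes shown is 0.29 to 0.30 for Aldh1l1 and 0.11 to 0.12 for Olig1.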

How the data were processed

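RNA of sorted cells was hybridised to 6 arrays. The authors calculated the probe set signals with RMA16 in GeneSpring and deposited them as log2 values. Whether the arrays were normalized together, and the annotation version, is not given in the sources used here. Of 28853 probe sets, 21789 had 1 gene symbol in the platform annotation, 1621 had several and 5443 none, and the probe set with the highest mean was used per gene. No dim probe set was removed. The model (limma 3.58.1, R 4.3.3) held a fraction term, a day block and eBayes, and p-values were adjusted over 19938 genes (Benjamini-Hochberg, threshold 0.05). A second fit added a change of the difference per day. On simulated arrays with planted differences between the fractions, the mean estimates of the first fit were checked against the planted values. No change of the difference per day was planted, so recovery by the second fit was not tested. Day pairs the fractions by the labels, and deviations of same-day arrays had correlations over genes of 0.112 (day 11), 0.558 (day 12) and 0.368 (day 13), but for GFP+ cells of day 11 the correlation was larger with GFP- cells of day 13 (0.297). Named genes are the 9 members, Bcl11b, per list up to 4 genes past the test or else the 2 with the largest difference, and 3 nearest profiles per member. Mbp, Mag, Mog, Mobp, Vim and Map2 were named after their values were seen, as list members. The members and the 13 other lists were chosen with earlier results of these data known. For the fractions, p-values measure the spread of the difference between days.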

Additional observations from a re-analysis of the deposited data

How the results depend on the processing

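The number of arrays limits every value, and with 2 residual degrees of freedom the calls depend on how the spread was estimated. Of the 9 genes, 1 was called higher (Pdgfra) and 1 lower (Aldh1l1) with each filter on dim probe sets, with a trended and robust eBayes and, unadjusted, with the methods' t-test. With no replicate block and without the day 13 GFP- array, added after seeing the data, 1 was higher (Pdgfra) and 0 lower. Leaving out each day in turn gave 0 to 1 higher and 0 to 1 lower. No member was called with no replicate block, the mean of probe sets, quantile normalization, median centring, or the methods' t-test after Benjamini-Hochberg adjustment. Over 13 alternatives the difference was 1.08 to 1.58 for Pdgfra and -2.45 to -1.59 for Aldh1l1, and in the 12 of them that adjust p it was 0.000609 to 0.483 and 3.61e-06 to 0.505, past the test in 6 and 5. The sign turned for Olig1 with quantile normalization (-0.0013), for Olig2 with median centring (0.0428) and, with neither the block nor the day 13 GFP- array, for Olig2 (0.25) and S100b (0.0043). With each day left out the difference was -0.10 to 0.26 for Olig1 and -0.13 to 0.13 for Olig2. The change per day of Cspg4 turned to 0.0017 with median centring. The causes were not tested.

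Over all genes 159 were called higher and 113 lower. With no replicate block it was 84 and 41, with median centring 0 and 0 (2615 at an unadjusted p under 0.05), and with quantile normalization 52 higher and 99 lower. The filters gave 387 and 226 (20th percentile) and 544 and 281 (Olfr 95th percentile), the trended and robust eBayes 549 and 510, and the methods' t-test 966 and 790 unadjusted and 0 and 0 adjusted. Leaving out a day gave 0 to 930 higher and 0 to 229 lower, with 0 in both without day 13 (3064 unadjusted). The change per day was called positive for 7 genes, for 0 with median centring, quantile normalization or the trended and robust eBayes (1 negative), and for 1 with each filter. It could not be fitted with a day left out, since no residual degree of freedom remains.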
